A study of Mus musculus with 16 samples.

Results

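A set of 9 genes of the erythroid lineage were followed here through HSCs of 2 BM compartments and 2 genotypes. They were Gata1, Klf1, Zfpm1, Epor, Tfrc, Car1, Car2, Hba-a1 and Hbb-bs, 9 of the 46078 genes in the count table, and they were picked for how they varied over these same libraries. Their levels and differences are therefore given as descriptions without a test. Each library was made from 30 HSCs of C57/Bl6 mice that had been gated on LSK, CD48- and CD150+, and 15 of 16 labelled samples were used. WT endosteal (n = 4) and WT central (n = 4) HSCs had the intact Gfra2 gene, and Gfra2-/- endosteal (n = 4) and Gfra2-/- central (n = 3) HSCs came from knockout mice. GFRα2 is a receptor that cholinergic neurons need to survive, and the mice were untreated. Endosteal cells were those of the bone fraction and central cells were those of the marrow fraction of the same kinds of long bone. The knockout is in every cell of the animal, so an effect in HSCs and one in the nerves or the niche cannot be told apart. The labels tie no library to a mouse and give no age, so standard errors and p-values measure only the spread between these libraries, which may be technical. Fewer cells of a type in a pool and less RNA per cell cannot be told apart in these data.

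Erythroid cells are the progenitors and precursors of red blood cells. GATA1 is the transcription factor that drives their maturation, FOG1 (the product of Zfpm1) is its cofactor, and KLF1 switches on globin, membrane and haem genes in committed cells. The erythropoietin receptor (Epor) and the transferrin receptor (Tfrc) take up the survival signal and the iron, carbonic anhydrases 1 and 2 (Car1, Car2) balance carbon dioxide and bicarbonate, and Hba-a1 and Hbb-bs encode chains of adult haemoglobin. HSCs at the top of this lineage are known to carry low levels of some of these transcripts before they commit, which is what priming refers to.

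Levels are given as CPM, counts relative to the reads on genes of a library after TMM scaling over the 15 libraries. Libraries held 826487 to 18550008 reads on genes. WT central libraries were the shallowest, with 826487 to 3367289, so a count of 0 there allows up to 0.891 to 3.63 CPM (3 counts), against at most 0.679 CPM in the other groups. Counting intervals and these limits cover counting error only, since the reads carry no molecular identifiers. WT central libraries A and C did not pass the quality cut-offs of the study. A further 4 libraries, 1 in each group (WT endosteal D, WT central D, Gfra2-/- endosteal D and Gfra2-/- central C), had under 0.5% spike-in reads, and the 11 with at least 0.5% are also given on their own. Gfra2 itself had 0, 0, 0 and 1 reads in WT endosteal, 0, 0, 4 and 0 in WT central, 2, 47, 1 and 9 in Gfra2-/- endosteal and 0, 1 and 0 in Gfra2-/- central libraries. With 47 and 9 reads, B and D of the Gfra2-/- endosteal group did not match a knockout, although reads outside a deleted part would check nothing. Both genotypes are therefore named by label. Results for Klf1 and Zfpm1 and some medians over the members are also given without B and D, and those of the globin genes without D. Fits of Gata1, Epor and Car2 that include B and D are not given without both.

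The 9 genes spanned the whole range of expression in HSCs. Per kb of exon, the median over the 15 libraries was 494 CPM for Car2, higher than that of 99.2% of the genes tested. It was 21.6 for Zfpm1, 6.01 for Tfrc, 5.20 for Epor, 2.43 for Hbb-bs, 2.37 for Gata1 and 1.11 for Hba-a1. For Klf1 and Car1 it was 0. Car2 did not overlap with the next gene, since Car2 was never under 298 CPM per kb and Zfpm1 never over 51.3, whereas the ranges of Zfpm1, Tfrc and Epor overlapped with one another. Car2 made up 71.4% to 95.6% of the summed CPM of the 9 genes in a library. Car2, Tfrc and Zfpm1 had reads in all 15 libraries, Gata1 in 14, Epor in 13, Hbb-bs in 12, Hba-a1 in 10, Klf1 in 7 and Car1 in 6.

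**Figure D1:**
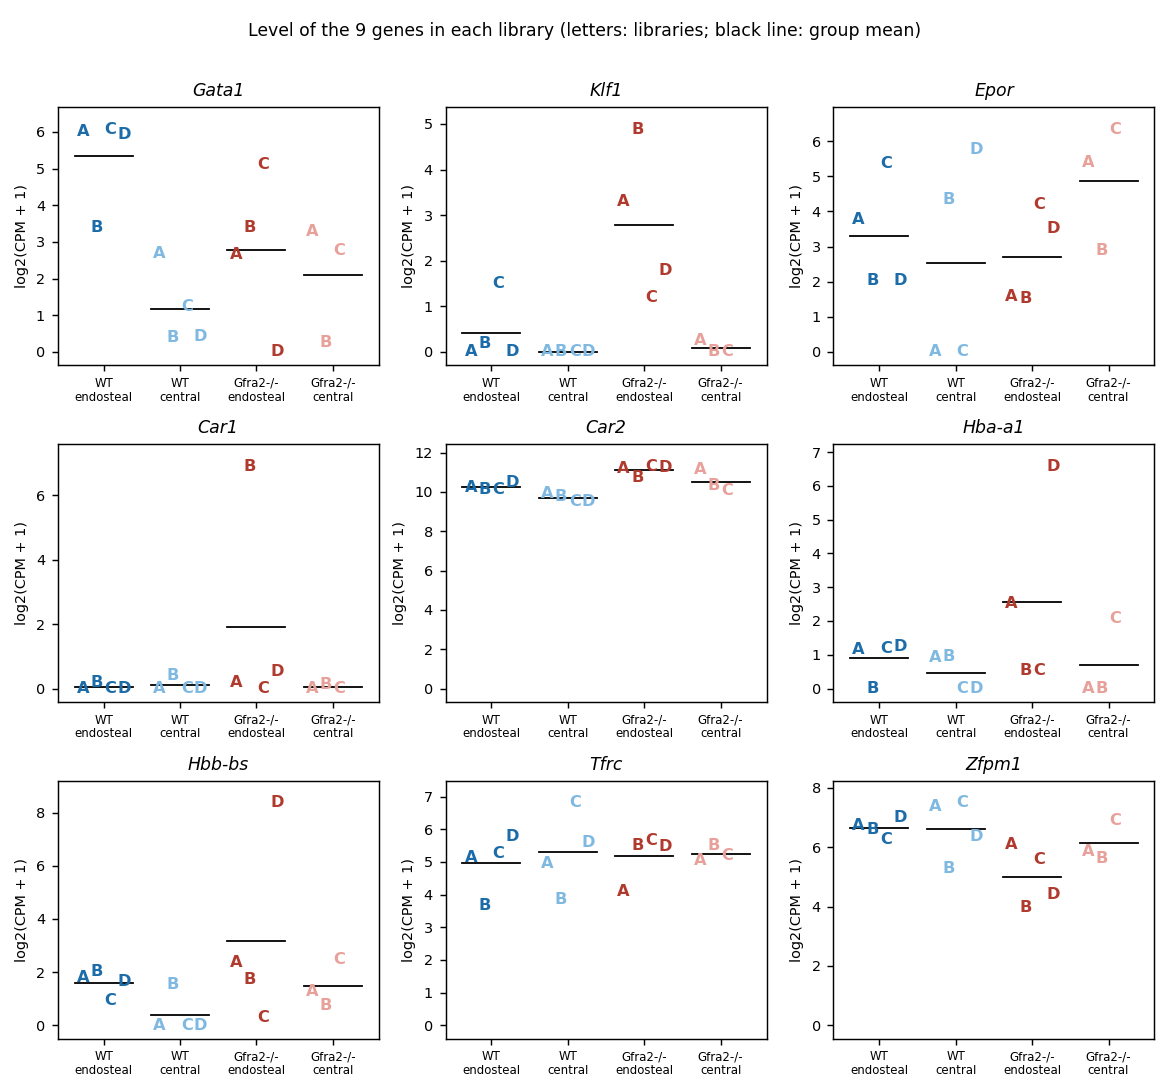
Level of each of the 9 genes on the log2(CPM + 1) scale (y axis) in the 4 groups (x axis), with a letter for each library and a line for the mean. Car2 sits between 720.9 and 2539 CPM in every library, whereas Car1, Hba-a1 and Hbb-bs are high in 1 library of 15 each.

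Gata1 was high in WT endosteal HSCs and close to absent in WT central HSCs. The gene (chrX:7959260-7978071, minus strand, mm10) had 62.9, 9.59, 65.9 and 60.2 CPM in the 4 WT endosteal libraries. It had 5.43, 0.311, 1.34 and 0.337 CPM in the 4 WT central libraries, which is 6, 1, 1 and 1 reads, with a 95% Poisson interval of 1.99 to 11.8 CPM for library A. The groups did not overlap, although WT endosteal B lay close to WT central A. The log2 fold change was 4.85 ± 1.24 (SE, here and below derived from the F statistic of edgeR). It was 7.18 ± 1.44 without WT central A and C, the libraries below the cut-offs, and 4.27 ± 1.46 among libraries with at least 0.5% spike-in reads. After each library was thinned to the depth of the smallest, 43, 8, 60 and 60 reads were left in WT endosteal and 5, 1, 1 and 0 in WT central libraries.

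In the libraries labelled Gfra2-/-, the compartments were not separated for Gata1. Endosteal libraries had 5.34, 9.59, 33.3 and 0 CPM and central libraries 8.79, 0.189 and 5.78. Library D of the endosteal group had no Gata1 read among 11985523, which allows at most 0.25 CPM before TMM scaling. The log2 fold change was 1.30 ± 1.85, and with scaling by spike-ins it was -0.23 ± 1.77. Between genotypes, Gata1 was at 12.1 ± 14.7 CPM (SD, n = 4) in Gfra2-/- endosteal and at 49.6 ± 26.8 (SD, n = 4) in WT endosteal HSCs, with overlap of the groups and a log2 fold change of -2.03 ± 1.31. In central HSCs it was 4.92 ± 4.36 (SD, n = 3) against 1.86 ± 2.43 (SD, n = 4), and the log2 fold change was 1.46 ± 1.52. The difference between the genotypes in endosteal against central was -3.57 ± 2.09 on the log2 scale.

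The 250 bases before the RefSeq start of Gata1 are shown because this member had the clearest difference between compartments in WT mice. The stretch is chrX:7967911-7968160 (GRCm38, minus strand, written 5′ to 3′), and capitals mark matches to CCNCNCCC, the kind of site that KLF factors bind.
Gata1: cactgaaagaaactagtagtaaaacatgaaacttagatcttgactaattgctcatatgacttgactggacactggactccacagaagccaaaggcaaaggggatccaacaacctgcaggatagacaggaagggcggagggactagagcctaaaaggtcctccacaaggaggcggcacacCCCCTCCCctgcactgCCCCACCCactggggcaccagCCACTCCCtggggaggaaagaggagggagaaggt
The window held 3 such matches and none of the GATA words searched for on either strand (AGATAA or AGATAG and TGATAA or TGATAG). For Klf1, which has 1 GATA word and no CCNCNCCC match, the part of the 250 bases outside annotated exons is chr8:84901732-84901927 (plus strand), and capitals mark the GATA word on the opposite strand.
Klf1: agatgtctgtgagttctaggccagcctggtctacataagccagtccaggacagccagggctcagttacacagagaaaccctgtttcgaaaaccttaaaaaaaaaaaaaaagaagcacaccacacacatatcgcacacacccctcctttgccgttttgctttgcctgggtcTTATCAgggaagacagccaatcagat
Epor had both kinds, with 1 GATA word and 4 CCNCNCCC matches in chr9:21963577-21963826 (minus strand), where pairs of CCNCNCCC matches overlap each other.
Epor: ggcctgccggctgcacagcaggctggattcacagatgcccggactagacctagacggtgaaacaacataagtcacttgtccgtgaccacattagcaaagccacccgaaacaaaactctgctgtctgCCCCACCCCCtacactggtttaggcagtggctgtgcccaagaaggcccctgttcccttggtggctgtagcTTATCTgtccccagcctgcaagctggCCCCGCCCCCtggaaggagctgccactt
Hba-a1 had 1 GATA word and no CCNCNCCC match, and the part outside annotated exons is chr11:32283422-32283510 (plus strand).
Hba-a1: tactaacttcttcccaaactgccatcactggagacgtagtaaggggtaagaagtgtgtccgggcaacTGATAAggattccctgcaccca
Of all 32851 windows of this length, 26.5% hold a GATA word and 45.9% a CCNCNCCC match. A match is only a description of letters.

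Klf1 was found mainly in endosteal libraries labelled Gfra2-/-. The gene (chr8:84901928-84905291, plus strand) had 130, 562, 11 and 28 reads there, which is 8.79, 28.4, 1.27 and 2.45 CPM. It had 0, 2, 20 and 0 reads in WT endosteal, none in the 4 WT central and 3, 0 and 0 in Gfra2-/- central libraries. All 4 Gfra2-/- endosteal libraries were above the 3 central ones, and library B held 74.3% of all Klf1 reads. Between the Gfra2-/- compartments the log2 fold change was 6.95 ± 2.05. Pooled over the libraries, Klf1 was 149.9-fold higher in Gfra2-/- endosteal than in Gfra2-/- central HSCs. The counting interval of 51.1 to 728 was set by the 3 central reads and leaves out the spread between libraries. Without endosteal B the ratio was 54.4 (18.3 to 266), and without B and D it was 67.4 (22.6 to 331). Against WT endosteal HSCs the log2 fold change was 4.32 ± 1.76, with overlap at WT endosteal C. It was 3.03 ± 1.72 without Gfra2-/- endosteal B and 3.33 ± 2.07 without B and D. The difference between the genotypes in endosteal against central was 1.68 ± 7.16 on the log2 scale, and DESeq2 gave 5.10 ± 3.12.

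Zfpm1 had another pattern. The gene (chr8:122282141-122337251, plus strand) had 105, 96.9, 75.6 and 128 CPM in WT endosteal and 66.8, 14.6, 47.1 and 20.1 CPM in Gfra2-/- endosteal libraries. Each Gfra2-/- endosteal library was below each WT endosteal library, and the log2 fold change was -1.44 ± 0.52. It was -0.83 ± 0.45 without Gfra2-/- endosteal B and D and -1.11 ± 0.61 among those with at least 0.5% spike-in reads. Central libraries had 165, 38.2, 180 and 80.6 CPM in WT and 57.4, 48.0 and 119 CPM in Gfra2-/- HSCs, and these 2 groups overlapped. Between compartments the log2 fold change was -0.21 ± 0.52 in WT mice, where scaling by spike-ins gave 1.90 ± 1.62, and -1.01 ± 0.63 in libraries labelled Gfra2-/-. The latter was -0.39 ± 0.56 without endosteal B and D and -0.29 ± 0.71 among libraries with at least 0.5% spike-in reads.

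The receptors did not separate the groups. Epor (chr9:21958897-21963506, minus strand) had 12.7, 3.06, 40.3 and 3.11 CPM in WT endosteal and 0, 19.3, 0 and 53.3 CPM in WT central libraries. In the libraries labelled Gfra2-/- it had 1.96, 1.87, 17.4 and 10.3 CPM in endosteal and 40.9, 6.43 and 79.4 CPM in central HSCs. These 2 groups overlapped through central B, and the log2 fold change was -2.42 ± 1.11, or -1.72 ± 1.44 among libraries with at least 0.5% spike-in reads. Between WT compartments it was -0.34 ± 1.48, and its sign differed in 4 of 16 other settings. The 2 WT central libraries without an Epor read were A and C, where up to 2.44 and 3.63 CPM before TMM scaling would give no more than 3 counts.

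Tfrc (chr16:32608920-32632794, plus strand) was at a similar level in all groups. It had 33.9, 11.8, 37.2 and 53.4 CPM in WT endosteal, 29.9, 13.4, 111 and 47.2 CPM in WT central, 15.9, 44.4, 48.9 and 43.1 CPM in Gfra2-/- endosteal and 31.7, 44.1 and 35.3 CPM in Gfra2-/- central libraries. The 4 groups overlapped throughout. The log2 fold changes in the 4 comparisons lay between -0.58 ± 0.80 and 0.17 ± 0.62, and their signs depended on the scaling in each comparison.

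Car2, the cytosolic carbonic anhydrase with the highest level of the 9 genes, was the member with the smallest standard errors. The gene (chr3:14886273-14900770, plus strand) had 1197, 1129, 1104 and 1426 CPM in WT endosteal and 982, 863, 731 and 721 CPM in WT central libraries. It had 2349, 1728, 2539 and 2390 CPM in Gfra2-/- endosteal and 2255, 1303 and 1082 CPM in Gfra2-/- central libraries. WT central was the lowest and Gfra2-/- endosteal the highest group, and both genotype comparisons and the WT compartments were without overlap. Only the compartments of the libraries labelled Gfra2-/- overlapped, through central A.

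In endosteal HSCs the log2 fold change of Car2 between Gfra2-/- and WT was 0.90 ± 0.18, and in central HSCs it was 0.88 ± 0.27. Between endosteal and central HSCs it was 0.54 ± 0.21 in WT and 0.55 ± 0.27 in libraries labelled Gfra2-/-, and the difference between the genotypes in endosteal against central was -0.02 ± 0.32. Among libraries with at least 0.5% spike-in reads the compartments differed by 0.34 ± 0.26 in WT and 0.33 ± 0.31 in Gfra2-/-, and the genotypes by 0.95 ± 0.22 in endosteal and 0.997 ± 0.32 in central HSCs. With spike-in scaling the WT and central comparisons gave 2.29 ± 1.55 and 2.48 ± 1.57, but the median of all genes then moved to 1.58 and 1.75, and the endosteal comparison of genotypes gave 0.52 ± 1.21. Without Gfra2-/- central A, the central comparison gave 0.51 ± 0.26, and over the libraries left out in turn the endosteal one lay between 0.83 and 0.99. In the libraries with fewer spike-in reads, 1 per group, Car2 was at 1426 in WT endosteal, 721 in WT central, 2390 in Gfra2-/- endosteal and 1082 CPM in Gfra2-/- central HSCs. Here the Gfra2-/- central library lay below the WT endosteal one, whereas the group means were 1547 and 1214 CPM.

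**Figure D2:**
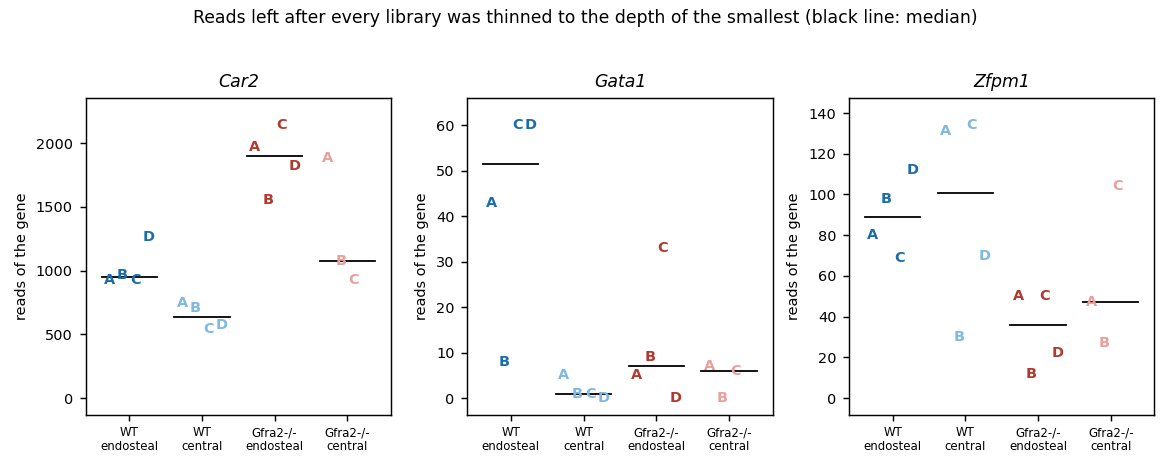
Reads of Car2, Gata1 and Zfpm1 (y axis) left in each library (letters, by group on the x axis) after random thinning to the 826487 reads of the smallest library, with the median as a line. Car2 keeps 545 to 748 reads in WT central and 1558 to 2141 in Gfra2-/- endosteal libraries.

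Car1, the other carbonic anhydrase and a gene of more mature erythroid cells, was a single library. Gfra2-/- endosteal B had 2345 reads (118 CPM), which is 99.5% of all reads of Car1 (chr3:14766216-14808368, minus strand). The other 14 libraries had 0 to 5 reads. No fold change is given, because the gene did not pass the low-count filter of edgeR in any comparison.

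Of the adult haemoglobin genes, Hba-a1 and Hbb-bs were also held mainly by a single library. Hba-a1 (chr11:32283511-32284465, plus strand) had 94.8 CPM and Hbb-bs (chr7:103826534-103828096, minus strand) 329 CPM in Gfra2-/- endosteal D, which held 88.0% and 93.3% of their reads. In the other 14 libraries Hba-a1 was at 0 to 4.74 CPM and Hbb-bs at 0 to 4.49 CPM. Without this library the log2 fold change of Hbb-bs between Gfra2-/- and WT endosteal HSCs was 0.05 ± 1.17, against 5.31 ± 1.89 with it. For Hba-a1 it was 0.96 against 4.71 ± 1.98. These genes have near-identical copies, Hba-a2 and Hbb-bt, and reads that match both copies could not be assigned, so their split is uncertain. Hbb-bt had more reads than Hbb-bs in 14 of 15 libraries, with 1559 against 46 in WT endosteal B, and only Gfra2-/- endosteal D had more of Hbb-bs, with 3755 against 1703. Hba-a2 had 785 reads in that library and at most 26 elsewhere. Summed over Hba-a1, Hba-a2, Hbb-bs and Hbb-bt, adult globin was at 642 CPM in Gfra2-/- endosteal D. It was at 3.61 to 107 CPM in the other 14 libraries, with 107 CPM in WT endosteal B and 102 CPM in WT endosteal D.

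**Figure D3:**
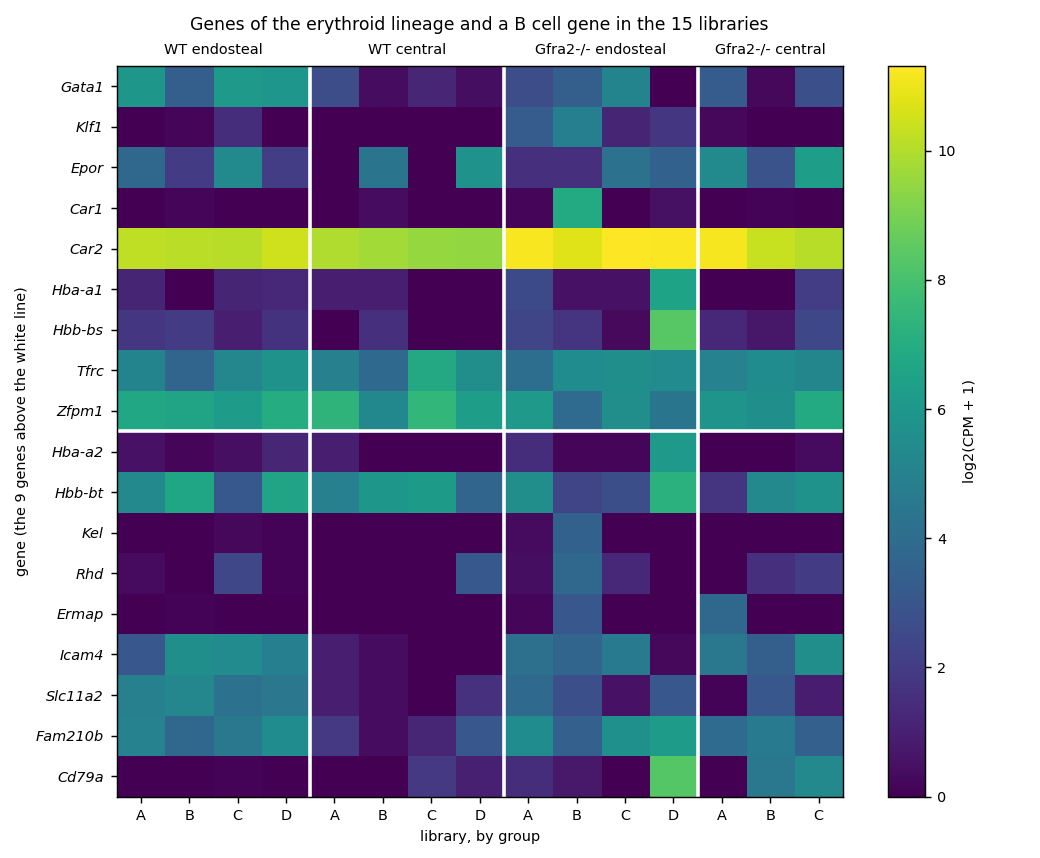
Level on the log2(CPM + 1) scale (colour) of the 9 genes (above the white line) and 9 further genes, chosen after their values were seen, in each library (columns). Hba-a1, Hba-a2 and Hbb-bs are brightest in Gfra2-/- endosteal D, together with Cd79a, and Klf1, Car1 and Kel in Gfra2-/- endosteal B.

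The libraries that held these genes also held other lineage transcripts. Gfra2-/- endosteal B had 205 reads of Kel, 255 of Rhd and 149 of Ermap, which encode red cell surface proteins. Ermap was also present in Gfra2-/- central A, with 194 reads. Gfra2-/- endosteal D had no read of Kel, Rhd or Ermap, but it had 265 reads (23.2 CPM) of Alas2, the erythroid form of the first enzyme of haem synthesis, the highest level of the 15 libraries, next to 22.3 CPM in Gfra2-/- central A. Its summed CPM over the 8 B cell markers was 2072, against 11.8 to 431 in the other 14 libraries, and all 8 had more than 3 reads there, as they did in B at a sum of 91.0 CPM. Of the 7 erythroblast markers, 6 had more than 3 reads in Gfra2-/- endosteal B and 2 in D. The summed erythroblast markers ranged from 10.2 to 41.6 CPM in WT endosteal, 2.72 to 71.2 in WT central, 10.4 to 63.7 in Gfra2-/- endosteal and 65.2 to 84.5 in Gfra2-/- central libraries, much of it from Hemgn. No erythroblast marker was at 0 in all libraries. Neutrophil and monocyte markers summed to 541 to 996 CPM in WT endosteal and 544 to 3921 CPM in WT central libraries. In libraries labelled Gfra2-/- the sums were 478 to 700 CPM in endosteal and 566 to 1632 CPM in central HSCs. The highest were in WT central D (3921 CPM) and WT central C (2624 CPM). The 10 HSC markers summed to 1621 to 2768 CPM and each had a read in every library. The part of these cells in the results was not tested.

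**Figure D4:**
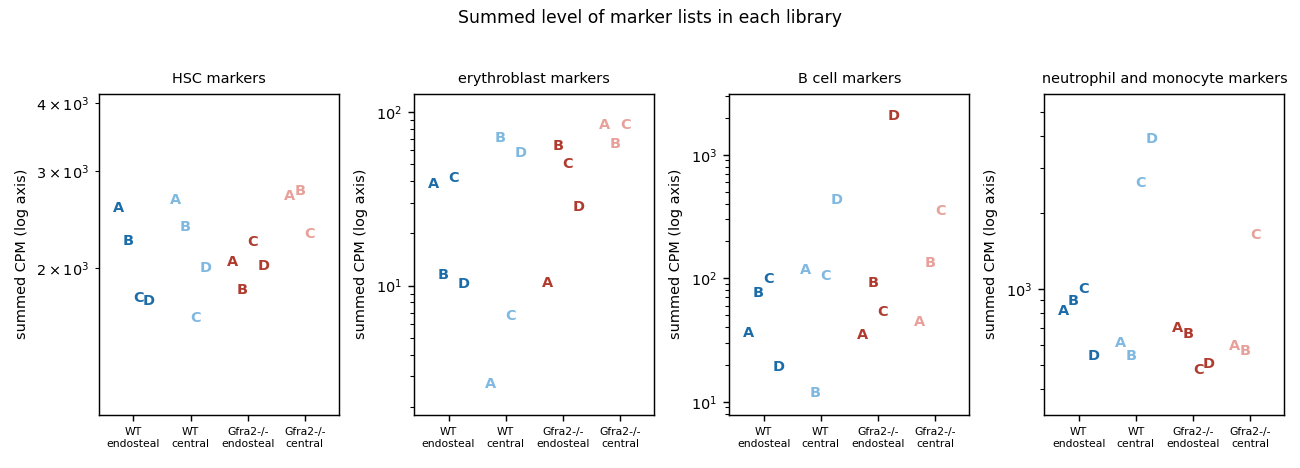
Summed CPM (log axis) of 4 marker lists in each library (letters) by group. The B cell sum of Gfra2-/- endosteal D, 2072 CPM, lies above those of the other libraries. The neutrophil and monocyte sum is highest in WT central D, at 3921 CPM. The HSC sums lie between 1621 and 2768 CPM.

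Tests over all genes gave little to set beside these levels. At an FDR of 0.1 edgeR passed 0 of 11181 genes tested (0%) between WT endosteal and WT central HSCs, 0 of 13860 (0%) between the compartments in libraries labelled Gfra2-/-, 6 of 11772 (0.051%) between genotypes in central HSCs, 0 of 12970 (0%) in endosteal HSCs and 0 of 15416 (0%) for the difference between genotypes. None of the 9 genes passed in any of these. At an unadjusted p under 0.05 there were 882 (7.89%), 664 (4.79%), 1028 (8.73%), 868 (6.69%) and 1074 (6.97%) genes. DESeq2, the tool of the study, passed 606 (4.49%), 395 (2.75%), 725 (5.14%), 534 (3.71%) and 243 (1.68%) genes, with 1 member in WT compartments (Gata1), 1 in the compartments labelled Gfra2-/- (Klf1) and 1 between genotypes in endosteal HSCs (Car2). In these 3 comparisons DESeq2 gave no adjusted p to 3, 3 and 4 of the 9 genes. The members were picked for how they varied over these libraries, so their calls are a description only.

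Of the 9 genes, 5 passed the low-count filter between WT compartments and in central HSCs, and 8 in the other comparisons. Among those that passed, 2 were without overlap and higher in endosteal WT HSCs, where 4.27% of all genes tested were higher and 2.09% lower without overlap. In the compartments labelled Gfra2-/- 1 was higher (3.67% of all genes higher, 3.67% lower), and in central HSCs 1 was higher in Gfra2-/- (7.99% higher, 4.44% lower). In endosteal HSCs 1 was higher and 1 lower in Gfra2-/- (2.69% higher, 3.55% lower). Since the genes were chosen on these contrasts, nothing is read from these counts. The median log2 fold change of the members tested was -0.21 in WT compartments, 0.92 in those labelled Gfra2-/-, 0.88 in central and 0.53 in endosteal HSCs, where the medians over all genes tested were 0.03, 0.03, 0.03 and 0.03. Without Gfra2-/- endosteal B and D the second of these medians was 0.34 and the last -0.02, and after thinning, with 3 or 4 members tested, the 4 medians were -0.29, -0.30, -0.01 and -0.74.

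**Figure D5:**
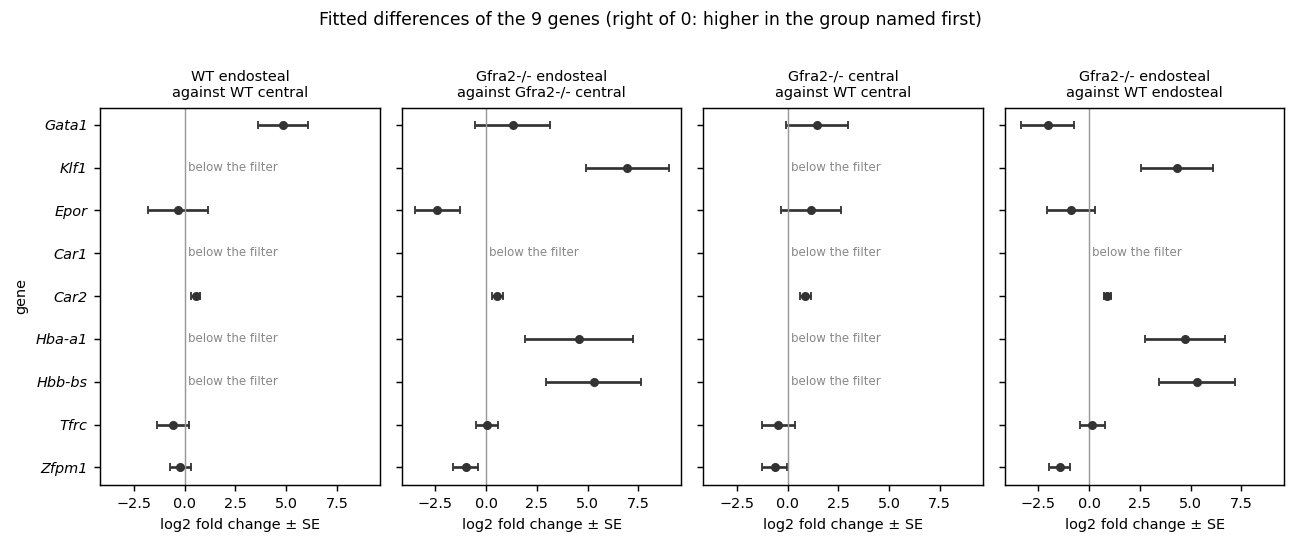
Fitted log2 fold change with its standard error (x axis) of each gene (y axis) in the 4 comparisons, where a value right of 0 is higher in the group named first. Car2 has the smallest errors, 0.18 to 0.27, and 1 to 4 genes per panel are below the low-count filter.

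Other genes of the erythroid programme were counted from 6 lists, on regulators, globins, haem synthesis, iron handling, EPO receptor signalling, and red cell membranes and enzymes. Of their 87 genes, 62 were tested between WT compartments, and 0 passed an FDR of 0.1 in edgeR. At an unadjusted p under 0.05 there were 5 higher and 4 lower in endosteal HSCs, which is 14.5% against 7.89% of all genes, and DESeq2 passed 3 higher and 0 lower of 64, where it passed 4.49% of all genes. In the libraries labelled Gfra2-/- 0 of 68 passed in edgeR, with 3 higher and 0 lower at the unadjusted p (4.41% against 4.79%) and 1 higher in DESeq2. Between genotypes 0 of 62 passed in central HSCs and 0 of 65 in endosteal HSCs, with 4 higher and 2 lower (9.68% against 8.73%) and with 3 higher and 1 lower (6.15% against 6.69%) at the unadjusted p. DESeq2 passed 2 higher and 2 lower, and 1 higher and 0 lower. For the difference between genotypes, 0 of 71 passed in edgeR, with 2 higher and 1 lower at the unadjusted p (4.23% against 6.97%), and DESeq2 passed 1 lower.

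Between WT compartments, the 3 genes that only DESeq2 passed were in the iron, membrane and haem lists. Slc11a2, the iron transporter DMT1, had 29.7, 36.5, 17.4 and 21.3 CPM in WT endosteal and 0.905, 0.311, 0 and 2.02 in WT central libraries. Its log2 fold change was 4.81 ± 1.20 with an edgeR adjusted p of 0.346 and a DESeq2 adjusted p of 4.72e-05. Icam4, an adhesion protein of red cells, had 30, 725, 475 and 343 reads in WT endosteal and 1, 1, 0 and 0 in WT central libraries, with an edgeR adjusted p of 0.272 and a DESeq2 adjusted p of 4.35e-05. Fam210b, a mitochondrial protein of haem synthesis, had 31.2, 13.3, 21.8 and 44.4 CPM against 2.72, 0.311, 1.34 and 7.41 CPM, a log2 fold change of 3.15 ± 1.14 and adjusted p of 0.542 in edgeR and 0.0419 in DESeq2. As for Gata1, each was without overlap and WT central was the shallow group. Lyn, a kinase of EPO receptor signalling, had a smaller unadjusted edgeR p than Fam210b in the other direction. It had 35.8, 73.7, 28.2 and 17.0 CPM in WT endosteal and 152, 23.9, 244 and 181 CPM in WT central libraries, with an edgeR adjusted p of 0.508 and a DESeq2 adjusted p of 0.115. Its groups overlapped through WT central B.

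In the other comparisons DESeq2 passed 1 gene each, except for 4 between genotypes in central HSCs (Icam4 and Pim1, with Slc40a1 and Steap3 of iron handling, these 4 named after their values were seen). Steap3, which reduces iron on its way into the cell, had 1, 1097, 343 and 273 reads in Gfra2-/- endosteal and 2, 0 and 0 in Gfra2-/- central libraries, which overlapped through endosteal A, with an edgeR adjusted p of 0.896 and a DESeq2 adjusted p of 0.000532. Alas1, the housekeeping form of the first enzyme of haem synthesis, was at 18.8 to 34.2 CPM in Gfra2-/- endosteal and at 0.909 to 10.6 CPM in WT endosteal libraries, with an edgeR adjusted p of 0.737 and a DESeq2 adjusted p of 0.0833. Pim1, a kinase gene downstream of EPO signalling, was at 30.4 to 39.3 CPM in Gfra2-/- central and at 62.0 to 153 CPM in WT central libraries, with an edgeR adjusted p of 0.443 and a DESeq2 adjusted p of 0.0261. Among regulators Tal1 had the smallest p, with a log2 fold change of -1.53 ± 0.53 between genotypes in endosteal HSCs, an edgeR adjusted p of 0.737 and a DESeq2 adjusted p of 0.18. None of the 19 regulators passed in either tool in any comparison.

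The 15 megakaryocyte genes, of a lineage that shares GATA1 and FOG1, also had no call in edgeR. At an unadjusted p under 0.05, 2 of 10 tested were higher and 0 lower in WT endosteal than WT central HSCs (7.89% of all genes in either direction). Between Gfra2-/- central and WT central HSCs 3 of 11 were higher and 0 lower (8.73%), and both comparisons include the shallow WT central group. In the compartments labelled Gfra2-/- it was 0 of 11 in either direction (4.79% of all genes). Between genotypes in endosteal HSCs it was also 0 of 11 (6.69%). For the difference between genotypes 1 of 12 was higher and 2 were lower (6.97%). Gp1ba, a platelet receptor, was at 5.40 to 20.7 CPM in WT endosteal and 0.933 to 1.81 CPM in WT central libraries, with an edgeR adjusted p of 0.481 and a DESeq2 adjusted p of 0.0084. Pf4, platelet factor 4, was at 24.8 to 205 CPM in Gfra2-/- central and at 0.674 to 10.9 CPM in WT central libraries, with an edgeR adjusted p of 0.318 and a DESeq2 adjusted p of 0.0117. Of the 11 other carbonic anhydrases 2 to 6 were tested and 0 passed in edgeR, and Car12 had 159, 14 and 4 reads in Gfra2-/- central and 3, 3, 0 and 0 in Gfra2-/- endosteal libraries, which only DESeq2 passed.

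The levels of the members were alike only in part. Over the 15 libraries, Pearson's r of log2(CPM + 1) was 0.92 between Hba-a1 and Hbb-bs and 0.77 between Klf1 and Car1, and it was -0.67 between Klf1 and Zfpm1. These libraries share depth differences, and the first and second values each turn on 1 library, Gfra2-/- endosteal D and B. Among 12299 genes, Hba-a1 was most like Hba-a2 (r = 0.95) and Hbb-bs (r = 0.92), and Car2 was most like Ubl7 (r = 0.89) and Fbxo46 (r = 0.88). Gata1 was most like Gm9761 (r = 0.84) and Adgrg3 (r = 0.83), Zfpm1 most like Ptpn18 (r = 0.89) and Rpl13a-ps1 (r = 0.87), Epor most like Scaf8 (r = 0.82) and Npc1 (r = 0.82), Tfrc most like Zfp180 (r = 0.84) and Rara (r = 0.80), and Klf1 most like Capsl (r = 0.89) and Gm36948 (r = 0.88). By rank some of these likenesses were weaker. Spearman's rho was 0.58 for Capsl and 0.55 for Gm36948 with Klf1, 0.49 for Rara with Tfrc and 0.63 for Hba-a1 with Hbb-bs. For the genes named with Gata1, Epor, Car2 and Zfpm1 it was 0.77 to 0.88. Klf1 had reads in only 7 libraries, so its values turn on few of them. Car1 did not pass the filter over the 15 libraries and was not compared in this way.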

How the data were processed

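RNA-Seq was performed on pools of 30 HSCs with the Smart-seq2 protocol. The authors aligned single-end reads to mm10 with GSNAP, and the deposited counts were made by them with htseq-count (HTSeq 0.5.3p3), without regard to strand and without normalization. Columns were matched to groups through the sample sheet of the study, and they carry no replicate number, so libraries are lettered within a group. A further 1 column could not be tied to a sample and was left unused. The summary rows of htseq-count (54.6% to 80.3% of a library) and the 92 spike-ins stayed out of library sizes and tests.

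Symbols came from GENCODE M21 (45229 of 46078 genes), and promoter sequences from RefSeq on GRCm38. Counts were tested with edgeR 4.0.16 (R 4.3.3): filterByExpr, TMM, the quasi-likelihood test and Benjamini-Hochberg adjustment at an FDR of 0.1, on the libraries of the groups compared, or on all 15 for the difference between genotypes. The SE of an edgeR fold change is its absolute value divided by the square root of the F statistic. It restates the test and is not a coefficient error taken from the fit. DESeq2 1.42.0 was an alternative. The script was tested on simulated data. The alternatives were DESeq2 or spike-in size factors, other filters, thinning, an FDR of 0.05, subsets of libraries and each library left out. The fit without Gfra2-/- endosteal B and D was added after seeing the data. The members and lists were chosen with earlier results of these data known. List genes named are the 3 with the smallest p in each list, and genes named for likeness are the 2 with the highest r among genes with over 500 reads in all. Genes shown to describe single libraries were chosen after their values were seen. Some single marker genes are not reported here.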

Additional observations from a re-analysis of the deposited data

Results flagged for a closer look

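Each member was examined for a library far from the others of its group, in the 3 groups of 4 libraries, with Dixon's criterion of 0.829. Of 26 groups of values 9 held such a library. For normally distributed measures not chosen for their spread, chance gives about 1 in 20. CPM values, many of them near 0 here, need not be so distributed, and these genes were picked for how they varied. In 3 of the 9 groups the other libraries were at 0, so this count is a description only. In Gfra2-/- endosteal HSCs, library B stood apart for Car1 at 118 CPM, and library D stood apart for Hba-a1 at 94.8 CPM and Hbb-bs at 329 CPM. In WT endosteal HSCs, library B was the low one for Gata1 at 9.59 CPM, and for Hba-a1 at 0 CPM. Library C was the high one for Klf1 at 1.82 CPM and library B for Car1 at 0.133 CPM. In WT central HSCs, library B was the high one for Car1 at 0.311 CPM and for Hbb-bs at 1.87 CPM. The high values of WT libraries rest on few reads, with 20 for Klf1, 2 and 1 for Car1 and 6 for Hbb-bs.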

How the results depend on the processing

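No paired analysis was possible because the columns carry no replicate numbers. The number of genes at FDR 0.1 depended on the tool and filter, and the cause was not tested. For WT endosteal against WT central it was 0, and 606 with DESeq2, 58 without a filter, 11 with at least 10 counts in every library, 5 after thinning, 22 with all 4 groups in 1 fit and 0 to 6 with each library left out. For the compartments labelled Gfra2-/- it was 0, and 395 with DESeq2 and 15 with spike-in factors. For genotypes in central HSCs it was 6, and 725 with DESeq2, 0 at FDR 0.05, 2 with spike-in factors, 134 without a filter, 29 with at least 10 counts, 16 after thinning, 0 in libraries past the cut-offs, 1 with at least 0.5% spike-in reads and 0 to 8 with each library left out. For genotypes in endosteal HSCs it was 0, and 534 with DESeq2, 6 with spike-in factors and 1 with all groups in 1 fit. For the difference between genotypes it was 0, and 243 with DESeq2 and 193 with spike-in factors. Members at FDR 0.1 numbered 0 in edgeR and 1 with DESeq2 in 3 comparisons. Of 636 member fold changes under an alternative, 47 had the other sign. None of these was for Gata1 or Car2 in WT compartments or for Car2 or Zfpm1 between genotypes in endosteal HSCs. But the sign also never changed for Hba-a1 and Hbb-bs between genotypes in endosteal HSCs, which rest mainly on Gfra2-/- endosteal D. A kept sign is therefore a description only. The settings differed in how often the sign changed. With 1 library left out it was 22 of 312, in fits that share most libraries, and with spike-in scaling 8 of 34. Without a filter and with another prior count it was 0 of 34 each. Spike-in scaling moved the median of all genes to 1.58, -0.46, 1.75, -0.28 and -2.18.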
